A study of Canis lupus familiaris with 23 samples.

Results

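Among 30951 genes counted in canine oral tumors and healthy gingiva, 17 genes had almost no counts in gingiva and were well above that level in several tumors. These genes were selected on their raw counts: at most 3 counts in each of the 7 gingiva libraries, and at least 100 counts in 3 or more of the 16 tumor libraries. A gene with at least 100 counts in a library is called on there. The values that chose the genes are given as a description, without a test of tumor against gingiva. The genes carry Ensembl identifiers only. The count table does not pair them with symbols, 0 identifiers matched the NCBI RefSeq gene table, and so no gene is given a name, a function or a position.

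Bulk RNA was sequenced from 3 tissues of the dog's mouth: acanthomatous ameloblastoma (CAA, 5 libraries), squamous cell carcinoma (COSCC, 11 libraries) and healthy gingiva (7 libraries). There were 3 maxillary and 2 mandibular CAA, and 7 maxillary and 4 mandibular COSCC. A maxillary site is given for 1 gingiva sample and the other 6 sites are undetermined. The animals were of mixed or various named breeds, with 0 of 5 CAA, 4 of 11 COSCC and 3 of 7 gingiva samples from mixed-breed dogs, and no treatment is given in the labels. Nothing in the labels states that each sample came from its own dog, so the p-values measure the spread between these samples. The tissues could not be checked against marker genes, because the identifiers have no symbols.

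CAA is a locally invasive tumor of odontogenic epithelium, the tissue that forms teeth, and it does not usually metastasize. COSCC is a malignant tumor of the squamous epithelium that lines the mouth. Genes that are silent in an adult tissue and transcribed in a tumor can belong to developmental programs, to the germ line or to other cell types in the tumor mass. To which of these the 17 genes belong was not tested. In bulk tissue a larger share of cells of some type and more RNA per cell cannot be told apart.

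The libraries held between 15120326 and 16813220 counts each, so that 100 raw counts stood for nearly the same share of every library. Several carcinomas stood apart from the rest. Over 15316 tested genes other than the 17, the mean Pearson correlation with the CAA libraries exceeded that with the other COSCC libraries in COSCC replicates 1, 3, 5 and 6. The pairs of values were 0.857 and 0.854 in replicate 1, 0.844 and 0.807 in replicate 3, 0.899 and 0.861 in replicate 5, and 0.876 and 0.847 in replicate 6. These are correlations across genes, which are not independent replicates, and the margin in replicate 1 was small. The results below are therefore also given without these 4 libraries, a choice made after seeing the data.

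Silence in gingiva was common and switching on in several tumors was rare. There were 12789 genes with at most 3 counts in every gingiva library, and 12550 of them were on in no tumor library. Both numbers include 3969 genes with no count in any library of any tissue. Of the remaining 239 genes, 175 were on in exactly 1 tumor, 47 in 2 and 17 in 3 or more. COSCC replicate 3 alone accounted for 87 of the 175 genes that were on in 1 tumor (49.7%).

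Most of the 17 genes were on in few tumors. Exactly 3 tumor libraries carried 9 of the genes, 4 libraries carried 3 genes, and 5 to 8 libraries carried 5 genes. No gene was on in more than 8 of the 16 tumors. The third-highest tumor count, which decided membership, was 102 in the member nearest the limit and 99 in the nearest gene outside it. In the gingiva libraries 72 of the 119 values were 0 and 11 were exactly 3, and 7 of the genes reached 3. Another 6 genes missed selection only because their highest gingiva count was 4. The 17 genes together had 8 to 15 counts in a gingiva library, 1089 to 5402 in a CAA library and 281 to 63283 in a COSCC library.

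**Figure D1:**
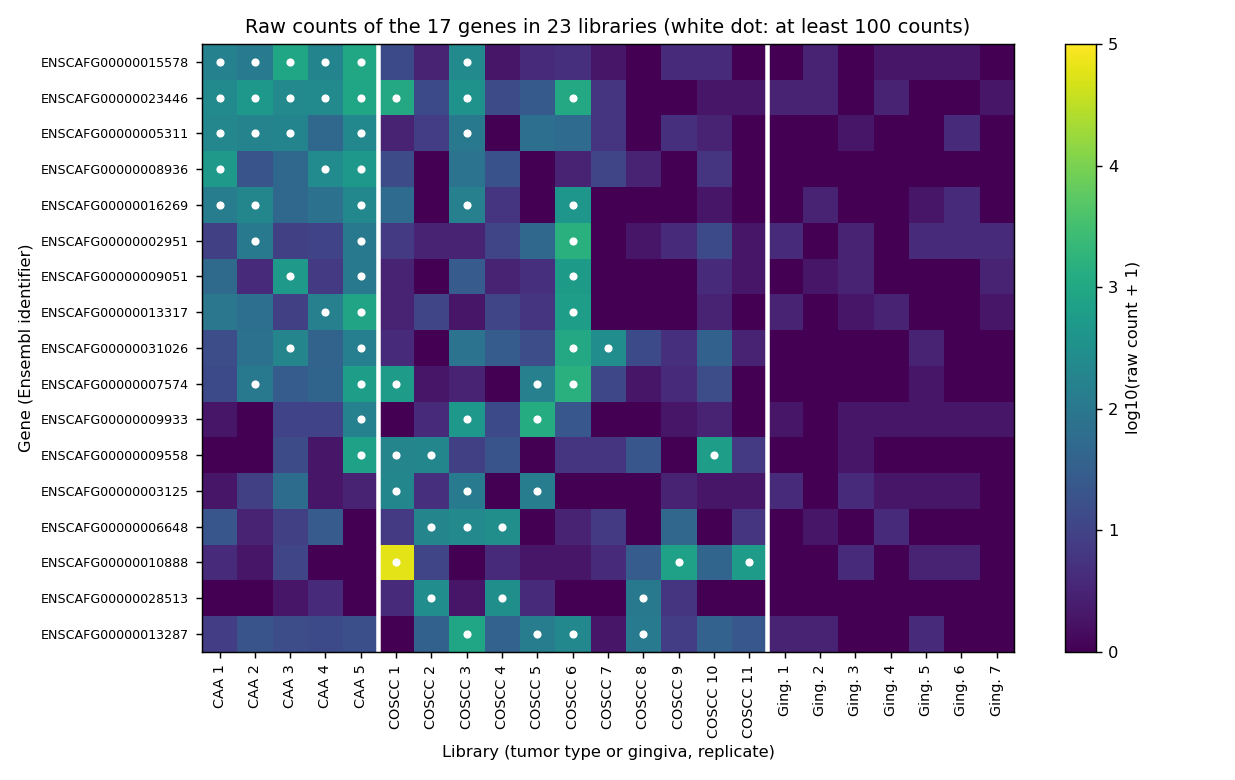
Raw counts of the 17 genes (rows) in the 5 CAA, 11 COSCC and 7 gingiva libraries (columns), colored by log10 of the count plus 1, with a white dot where a gene had at least 100 counts. Rows run from genes on in a larger share of CAA libraries to genes on in a larger share of COSCC libraries. The brightest cell is ENSCAFG00000010888 in COSCC replicate 1, with 61227 counts.

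Both tumor types carried most of the genes, and CAA did so in a larger share of its libraries. Of the 17 genes, 11 were on in at least 1 library of each tumor type, 5 were on in COSCC alone and 1 in CAA alone. A larger share of CAA than of COSCC libraries was on for 11 genes, and the reverse held for 6. Over all genes and libraries, 32 of 85 CAA values (37.6%) and 36 of 187 COSCC values (19.3%) were on. In COSCC replicates 1, 3, 5 and 6 the share was 25 of 68 values (36.8%), close to that of CAA. Without these 4 libraries the COSCC share was 11 of 119 values (9.24%). CAA replicate 5 alone held 12 of the 32 CAA values that were on. Values at the gingiva level, at most 3 counts, made up 20 of 85 in CAA (23.5%) and 94 of 187 in COSCC (50.3%). The highest library was a COSCC for 12 of the 17 genes, with COSCC making up 11 of the 16 tumor libraries. The lead of CAA held for the 17 genes and not for the mean over all genes silent in gingiva: of the 12789 such genes, a CAA library had a mean of 14.6 and a median of 9 on, and a COSCC library a mean of 24 and a median of 5.

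The number of genes on differed widely between libraries of each tumor type. In CAA it was 5, 6, 5, 4 and 12 in replicates 1 to 5. In COSCC it was 5 in replicate 1, 3 in replicate 2, 8 in replicate 3, 2 in replicate 4, 4 in replicate 5 and 8 in replicate 6. Replicate 8 had 2, and replicates 7, 9, 10 and 11 had 1 each. CAA replicate 5 thus led the CAA, and COSCC replicates 3 and 6 led the carcinomas. CAA replicate 5 and COSCC replicate 6 had 7 genes on in common, the most of any pair of tumors. COSCC replicate 6 was the highest library for 6 genes and CAA replicate 5 for 4.

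**Figure D2:**
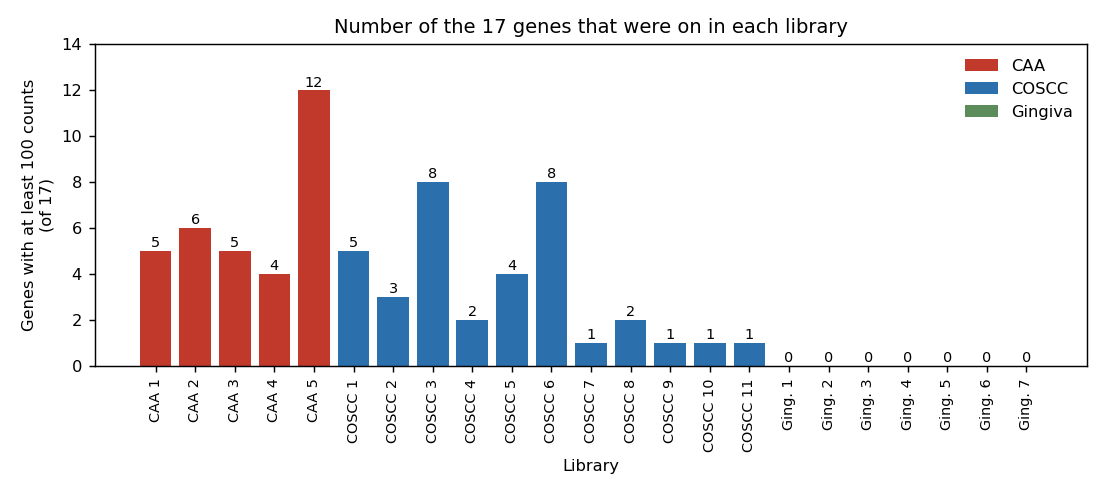
Number of the 17 genes with at least 100 counts in each library, with bars colored by group. CAA libraries held 4 to 12, COSCC libraries 1 to 8 and gingiva libraries 0, the last by the way the genes were chosen.

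The 4 carcinomas closer to CAA than to other COSCC over the other genes also had the most of these genes on. The correlation with CAA alone did not give this order. It was 0.871 in COSCC replicate 10, with 1 gene on, and 0.844 in COSCC replicate 3, with 8. COSCC replicates 1, 3, 5 and 6 had 5, 8, 4 and 8 genes on, and each of the other 7 carcinomas had 1 to 3. Of the 17 genes, 15 were on in at least 1 of those 4 libraries and 6 in at least 1 of the other 7. The 4 libraries also had 19329 to 20823 genes with at least 1 count, against 17831 to 19671 in the other 7. Nor was the pattern limited to the 17 genes. Of all 12789 genes silent in gingiva, 33, 127, 32 and 40 were on in COSCC replicates 1, 3, 5 and 6, and 2 to 13 in each of the other 7. The part of these differences in the result was not tested. No test was made between these sets of carcinomas, since they were told apart by their own expression.

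**Figure D3:**
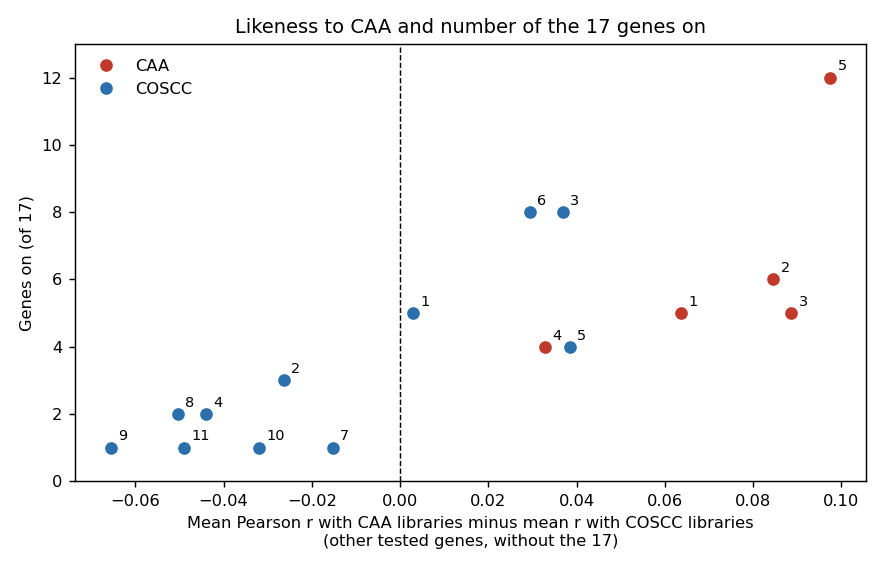
Each point is a tumor library, labelled by replicate number. The horizontal axis is its mean Pearson r with the CAA libraries minus its mean r with the COSCC libraries, over tested genes without the 17, and the vertical axis is the number of the 17 genes on. Carcinomas left of 0 have 1 to 3 genes on and those right of 0 have 4 to 8.

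The genes on in the most tumors were ENSCAFG00000023446 and ENSCAFG00000015578, and both were on in all 5 CAA. ENSCAFG00000023446 was on in 8 tumors. It had 233, 473, 223, 235 and 862 counts in CAA replicates 1 to 5, and no gingiva library exceeded 2 counts. In COSCC the lowest value was 0, the median 12 and the highest 1027. It was on in COSCC replicates 1, 3 and 6, with 1018, 373 and 1027 counts, and the other 8 carcinomas had 25 counts or fewer. Its level in these 3 carcinomas thus fell in or above the range of CAA, so the groups overlapped.

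ENSCAFG00000015578 was on in 6 tumors. It had 155, 118, 926, 182 and 957 counts in CAA replicates 1 to 5 and at most 2 counts in gingiva. In COSCC it ranged from 0 to 231 with a median of 3. Only COSCC replicate 3, with 231 counts, reached the range of CAA. The next carcinoma had 12 counts.

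ENSCAFG00000005311 and ENSCAFG00000016269 were on in 5 tumors each. ENSCAFG00000005311 had 206, 175, 179, 47 and 217 counts in CAA replicates 1 to 5, and 0 to 103 counts in COSCC with a median of 4. Its highest carcinoma was replicate 3. ENSCAFG00000016269 had 130, 194, 48, 75 and 212 counts in CAA and 0 to 427 counts in COSCC with a median of 0. COSCC replicates 6 and 3, with 427 and 149 counts, were on for this gene, and replicate 1 had 55. Both genes had at most 3 counts in gingiva.

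ENSCAFG00000008936 was on in CAA alone. It had 513, 19, 46, 258 and 473 counts in CAA replicates 1 to 5 and 0 counts in all 7 gingiva libraries. In COSCC the lowest value was 0, the median 2 and the highest 80, in replicate 3. The 3 CAA in which it was on all exceeded every carcinoma, while CAA replicates 2 and 3 lay within the carcinoma range.

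There were 5 genes on in COSCC and in no CAA, named here after their values were seen. ENSCAFG00000010888 had by far the largest value of any of the 17 genes. It reached 61227 counts in COSCC replicate 1, which was 0.396% of that library and rank 13 among its genes. It was also on in COSCC replicates 9 and 11, with 714 and 555 counts, and the median carcinoma had 10. In CAA it had 3, 1, 10, 0 and 0 counts. COSCC replicate 1 held 97.8% of all its tumor counts.

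ENSCAFG00000013287 was on in 4 carcinomas, the most of these 5 genes. It had 913 counts in COSCC replicate 3, 219 in replicate 6, 122 in replicate 5 and 115 in replicate 8. Its COSCC values ran from 0 to 913 with a median of 36. CAA libraries had 7, 19, 14, 12 and 16 counts, all above the gingiva limit and below every carcinoma in which the gene was on.

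ENSCAFG00000028513 had no counts in any gingiva library and 0, 0, 1, 3 and 0 counts in CAA replicates 1 to 5. It was on in COSCC replicates 2, 4 and 8, with 288, 312 and 102 counts, and the other 8 carcinomas had at most 5. No tumor had an intermediate count of this gene. None of its 3 carcinomas was among those that correlated more with CAA than with the other COSCC.

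ENSCAFG00000006648 was on in COSCC replicates 2, 3 and 4, with 184, 228 and 292 counts, and ran from 0 to 44 in the other carcinomas. CAA libraries had 0 to 26 counts. ENSCAFG00000003125 was on in COSCC replicates 1, 3 and 5, with 195, 119 and 131 counts, and had at most 4 counts in the other carcinomas. CAA replicate 3 had 57 counts of it and the other CAA 1 to 8. Both genes were thus on in 3 of 11 carcinomas.

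The remaining 7 genes were on in both tumor types, in 3 to 5 tumors each. All 7 were on in CAA replicate 5 and 5 of them in COSCC replicate 6. Their highest counts ran from 537 to 1522. Single libraries dominated several genes: over all 17, 1 library held at least 50% of the tumor counts for 5 genes.

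CAA was then compared with COSCC gene by gene. The rule did not name the tumor type, but it did use tumor counts. Of the 17 genes, 6 met it through 1 tumor type alone: ENSCAFG00000008936 through CAA, and the 5 genes on in no CAA through COSCC. ENSCAFG00000015578, ENSCAFG00000005311 and ENSCAFG00000016269 were on in 3 or more CAA and fewer than 3 COSCC. ENSCAFG00000009558 and ENSCAFG00000007574 were on in 3 COSCC and fewer than 3 CAA. Since the rule used the tumor counts of all 17 genes, the comparison is not independent of the selection for any of them. Their values and p-values are given as a description. Counts were tested with edgeR's quasi-likelihood method on the 16 tumor libraries. The low-count filter kept 15 of the 17 genes. ENSCAFG00000003125 and ENSCAFG00000028513 did not pass it and were not tested. Only ENSCAFG00000008936 passed an adjusted p of 0.05, and it met the rule through CAA alone. Its mean level was 15.7 ± 13.5 CPM (counts scaled to a common library size) over the CAA libraries (SD, n = 5). Over the COSCC libraries it was 0.667 ± 1.21 CPM (SD, n = 11). The log2 difference was 4.52 with an SE of 1.07, and edgeR gave an adjusted p of 0.0385. The call was lost without any 1 of CAA replicates 1, 2, 3 and 5 or COSCC replicates 2 and 7 to 11. The edgeR adjusted p in these fits ran up to 0.107, the value without CAA replicate 5.

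The count of 1 in 15 genes (6.67%) stands beside a background of 432 of 15331 genes (2.82%) called in either direction, and is too small to be read as a feature of these genes. Of all genes, 1.56% were called higher in CAA and 1.26% higher in COSCC. At an unadjusted p under 0.05 there were 5 of the 15 genes, against 26.6% of all genes. The log2 difference was above 0 in 8 of the 15, with a median of 0.41 against -0.07 for all genes. With library totals in place of the trimmed mean scaling, the median of all genes was 0.09 and the genes called split into 290 higher and 144 lower in CAA, against 239 and 193. The ranges of CAA and COSCC did not overlap for 0 of the 17 genes, where 0.809% of tested genes were higher in every CAA.

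**Figure D4:**
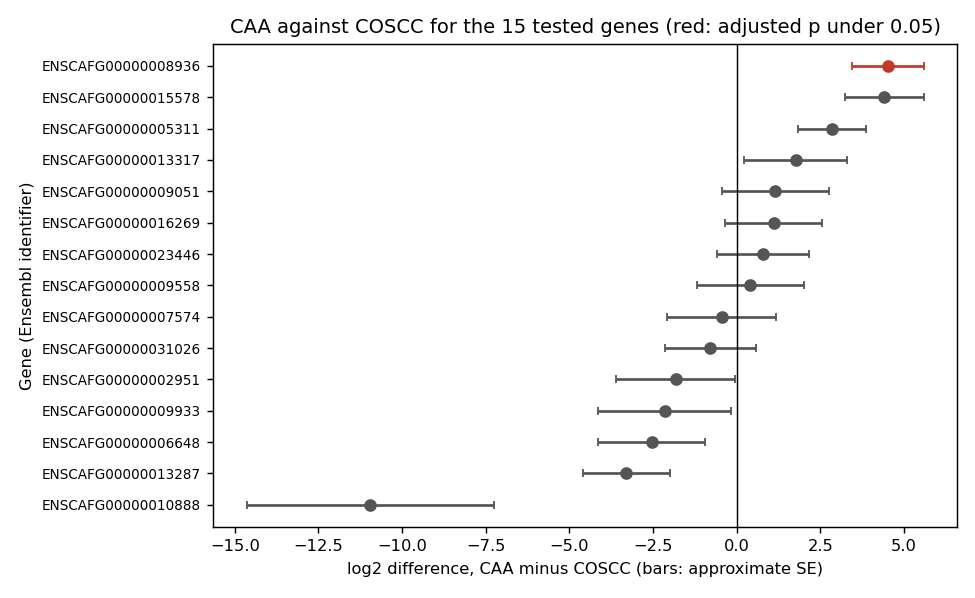
Log2 difference between CAA and COSCC (CAA minus COSCC, edgeR) for the 15 tested genes, with bars of 1 approximate SE. Only ENSCAFG00000008936, at 4.52, is past the adjusted threshold, and ENSCAFG00000010888, at -10.95, has the widest bar.

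Several other genes had large differences that did not pass the threshold. The rule used their tumor counts, so the p-values below are a description and not support for a difference. ENSCAFG00000015578 and ENSCAFG00000005311 were each on in only 1 COSCC, and ENSCAFG00000010888 and ENSCAFG00000013287 were on in no CAA. The mean level of ENSCAFG00000015578 was 27.2 ± 24.6 CPM over the CAA libraries (SD, n = 5) and 1.25 ± 3.55 CPM over the COSCC libraries (SD, n = 11). Its log2 difference was 4.41 with an SE of 1.18 (edgeR adjusted p = 0.0513). It passed in 11 of 28 alternatives, among them DESeq2 (adjusted p = 0.00491), limma voom (adjusted p = 0.000772), edgeR with the jaw (adjusted p = 0.0404) or the code (adjusted p = 0.0411) as a covariate, and edgeR with maxillary tumors only (adjusted p = 0.00914). It passed narrowly without COSCC replicate 5, COSCC replicate 6 or CAA replicate 4. Without COSCC replicate 3, the only carcinoma in which it was on, the log2 difference was 7.12 (edgeR adjusted p = 0.000199). For ENSCAFG00000005311 the log2 difference was 2.85 with an SE of 1.03 (edgeR adjusted p = 0.105). In the direction of COSCC, ENSCAFG00000010888 had a log2 difference of -10.95 with an SE of 3.69 (edgeR adjusted p = 0.0897). Without COSCC replicate 1 it was -5.82 (edgeR adjusted p = 0.0954). ENSCAFG00000013287 had -3.30 with an SE of 1.30 (edgeR adjusted p = 0.126). ENSCAFG00000023446, on in every CAA, had only 0.80 with an SE of 1.37 (edgeR adjusted p = 0.737), and 3 of its carcinomas were as high as CAA.

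The count of genes called depended on the method. DESeq2 called 6 of the 15, 4 higher and 2 lower in CAA, beside 15.5% of all genes. It gave no p-value for ENSCAFG00000007574 and ENSCAFG00000009933, which are among the 15 but could not be called. For ENSCAFG00000009051 and ENSCAFG00000013317 its log2 differences were 4.97 and 5.63, against 1.16 and 1.77 in edgeR. ENSCAFG00000010888 had -5.78 against -10.95. The other genes that it called had nearly the same values in both. DESeq2 was run with its default handling of outlying counts, and the part of this in the calls was not tested. Limma voom with sample quality weights called 6, all higher in CAA, beside 37.2%. An edgeR fit that included the gingiva libraries called 3, beside 8.72%, but the selection rule fixes the gingiva counts of these genes near 0 and so their spread in that fit. With same-numbered tumors as a block, edgeR called 0 of the 15, beside 0.0391% of all genes.

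Leaving out COSCC replicates 1, 3, 5 and 6 changed the comparison most. The filter then kept 11 of the 17 genes, and edgeR called 6 higher in CAA and 1 lower, beside 30.0% of all genes. The libraries left out were those that correlated more with CAA than with the other COSCC. Removing them widens differences between the tumor types by its construction, for these genes and for others. ENSCAFG00000015578 had 118 to 957 counts in CAA and 0 to 3 in the other 7 carcinomas. ENSCAFG00000023446 had 223 to 862 counts in CAA and 0 to 13 in those carcinomas, a log2 difference of 6.24 (edgeR adjusted p = 0.000287). For ENSCAFG00000016269 the ranges were 48 to 212 and 0 to 5, and for ENSCAFG00000005311 they were 47 to 217 and 0 to 7. ENSCAFG00000010888, which met the rule through COSCC alone, had a log2 difference of -6.32 (edgeR adjusted p = 0.0176). Both the genes and the libraries left out were chosen on expression in these tumors, so the p-values of this fit are a description. Genes with few counts in the remaining 7 carcinomas, such as ENSCAFG00000015578 and ENSCAFG00000016269, passed the low-count filter through CAA. The number called is therefore not read as an excess over the 30.0% of all genes.

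The genes on in a larger share of CAA than of COSCC libraries varied together over the tumors. Over the 16 tumor libraries, the Pearson r of log2 CPM between pairs of the 11 genes with a larger share of CAA libraries on had a median of 0.55, from 0.07 to 0.93, and was above 0 in all 55 pairs. Pairs of the 5 genes on in no CAA had a median r of 0.04, from -0.46 to 0.49, and 7 of the 10 pairs were above 0. Pairs with a gene of each kind had a median r of -0.17. These values describe the same 16 libraries that sorted the genes, so part of the likeness is built in, and tumor type is shared by all pairs. The 11 genes were not limited to CAA. COSCC replicate 6 was the highest library for 6 of them, and CAA replicate 5 and COSCC replicate 6 had 7 of them on in common. ENSCAFG00000009933 was on in 1 CAA and 2 COSCC. The part of single libraries in these correlations was not tested.

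The genes most like ENSCAFG00000023446 were ENSCAFG00000016269 (r = 0.93, Spearman rho = 0.91) and ENSCAFG00000005311 (r = 0.73, rho = 0.59). The genes most like ENSCAFG00000015578 were ENSCAFG00000005311 (r = 0.83, rho = 0.81) and ENSCAFG00000008936 (r = 0.83, rho = 0.72). These 5 genes made up the top of the plot of raw counts. Each was on in 3 to 5 of the 5 CAA, and in COSCC replicate 3 they had 80 to 373 counts.

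**Figure D5:**
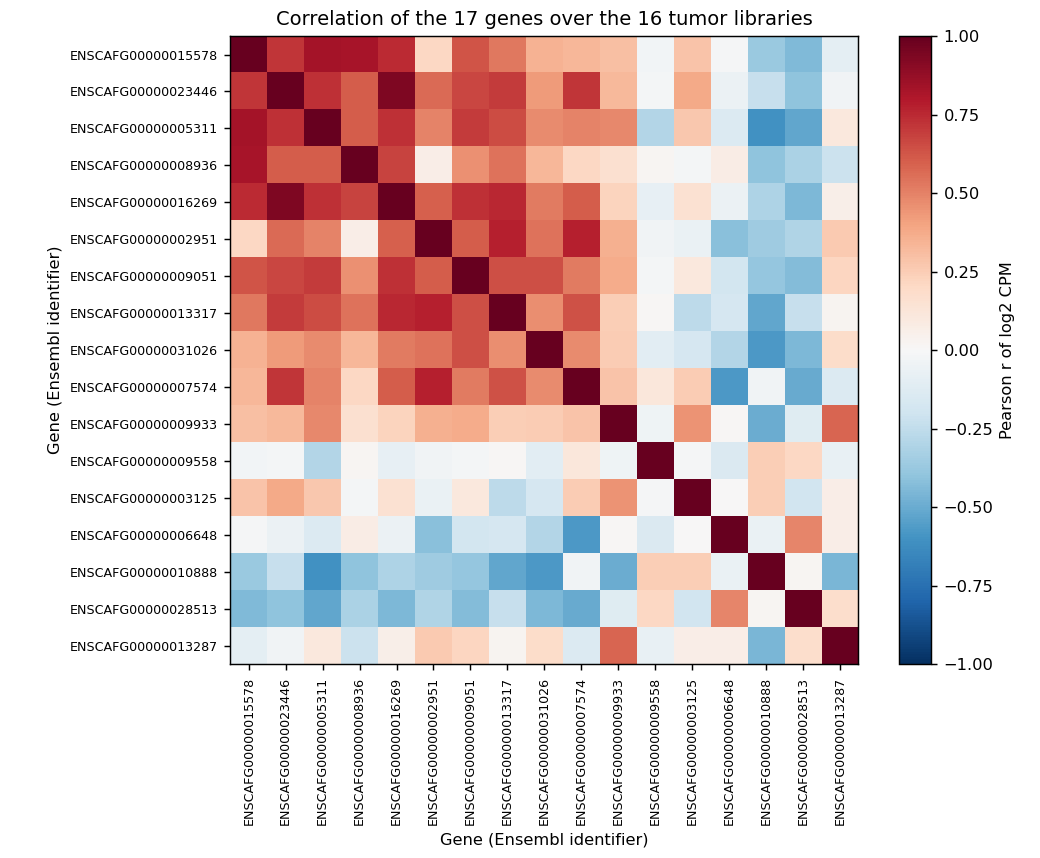
Pearson r of log2 CPM between the 17 genes over the 16 tumor libraries, in the row order of the plot of raw counts. The upper left block, genes on in a larger share of CAA libraries, is positive throughout (median 0.55), and the genes on in no CAA show no such block (median 0.04).

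Mandibular and maxillary carcinomas were also compared within COSCC. Mandibular COSCC had 3, 8, 2 and 4 of the 17 genes on, and maxillary COSCC had 1 to 8. The low-count filter kept 9 of the 17 genes. None was called by edgeR, the smallest adjusted p among them being 0.243, and 0% of 14958 genes were called. At an unadjusted p under 0.05 there were 3 of the 9 genes, against 13.1% of all genes. DESeq2 called 2 of the 9, beside 2.77% of all genes. These were ENSCAFG00000010888, higher in maxillary COSCC through replicates 1, 9 and 11, and ENSCAFG00000009933, higher in mandibular COSCC through replicates 3 and 5. These are largely the libraries that admitted the genes: ENSCAFG00000010888 met the rule through those 3 maxillary carcinomas alone, so its call is a description.

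ENSCAFG00000006648 was on in 3 of 4 mandibular carcinomas and in 0 of 7 maxillary ones, with a log2 difference of 3.99 and an SE of 1.35 (edgeR adjusted p = 0.298). The 3 mandibular carcinomas are those through which the gene met the rule, so this is a description, and it did not pass the threshold. The labels also give a code, FS or MC, without its meaning. All 4 mandibular carcinomas carried MC and 6 of the 7 maxillary ones FS. With the code as a covariate, edgeR called none of the 9 genes, and 0 had an unadjusted p under 0.05. Over all genes, 0 were called and 305 of 14958 had an unadjusted p under 0.05. Among the maxillary carcinomas only replicate 10 carried MC. The fit could therefore hardly separate jaw from code, and nothing is concluded from it.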

How the data were processed

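The authors deposited raw counts per gene for 23 libraries, with Ensembl dog gene identifiers. Per the labels' protocols, total RNA was freed of rRNA and made into strand-specific libraries. STAR and canFam3 are named in the submitters' processing notes. The counting program, use of strand and annotation release are not given in the sources used here, so reads of near-identical or overlapping genes may be divided in ways that cannot be traced. All columns matched a library name, and 0 were left over.

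The 17 genes were found on the raw counts. CAA and COSCC were compared with edgeR 4.0.16 in R 4.3.3 (filterByExpr by group, TMM scaling, glmQLFit and glmQLFTest on the 16 tumor libraries), with Benjamini-Hochberg adjustment over all 15331 tested genes and a threshold of 0.05. The jaw comparison used the 11 COSCC libraries. SEs are the absolute log2 difference divided by the square root of F, an approximation. CPM values use TMM-scaled totals, and the prior count for log2 CPM was 2. The edgeR procedure was also run on counts simulated from all genes that passed the filter. The outcome is not given here, and it does not bear on genes as uneven across libraries as these 17. Alternatives included DESeq2 1.42.0 and limma 3.58.1. Precision is limited by the number of libraries, and counting limits cover counting error only.

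The genes, rule and tests were chosen with earlier results of these data known. The naming rule gave up to 2 identifiers per direction and contrast, the 2 genes on in the most tumors and the 2 most like each. The 5 genes on in no CAA and ENSCAFG00000009933 were named after seeing their values. Planned gene lists and cell markers could not be matched to identifiers and were not used here.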

Additional observations from a re-analysis of the deposited data

Results flagged for a closer look

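A library far from its group was looked for in 20 sets of values from CAA or gingiva. Dixon's 95% limit was passed in 9, all in CAA. The limit flags about 1 in 20 groups by chance, but 8 of the 9 are tumor counts of the 17 genes or their number on, values that the selection used, so their number cannot be set against chance. The 11 COSCC libraries were too many to examine in this way. CAA replicate 5 accounted for 5 of the 9. It had 12 genes on, against 6 in the next CAA. It had 714 counts of ENSCAFG00000009558, against 13 in the next CAA, and 819 counts of ENSCAFG00000013317, against 147. It also had 615 counts of ENSCAFG00000007574, against 103, and 160 counts of ENSCAFG00000009933, against 9.

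CAA replicate 3 had 490 counts of ENSCAFG00000009051, against 106 in the next CAA, and 57 counts of ENSCAFG00000003125, against 8. CAA replicate 4 had the fewest detected genes of the CAA, 18932, and the next had 19884. It had 47 counts of ENSCAFG00000005311, against 175 in the nearest CAA.

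The difference between CAA and COSCC passed the threshold in ENSCAFG00000008936, with a log2 difference of 4.52 in edgeR, a gene that met the rule through CAA alone.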

How the results depend on the processing

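The number of genes was set by the limits of the rule. It was 2 with 0 counts required in gingiva and 68 with up to 10 allowed, 46 with a tumor minimum of 50 counts and 5 with 200, 64 with 2 or more tumors required and 5 with 5 or more. With TMM-scaled counts it was 12. Leaving out each library in turn gave 12 to 22, the lowest without CAA replicate 5. Genes on in a larger share of CAA than COSCC libraries numbered 9 to 12 under every threshold and scaling tried, and 9 to 11 without single libraries. Genes on in no CAA numbered 8 with an on threshold of 200 counts and 2 with 11, and 5 to 7 without single libraries.

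For CAA against COSCC, 1 gene was called. Counts were 6 with DESeq2 (beside 2369 of all 15251 genes), 6 with limma voom (5708 of 15331) and 3 with all 23 libraries (1371 of 15716). They were 2 with the code as a covariate (beside 232 of 15331) and 2 with the jaw as a covariate (318 of 15331). With maxillary tumors only, 2 of 13 were called, beside 765 of 15424. Without the 4 carcinomas closer to CAA than to the other COSCC, 7 of 11 were called, beside 4413 of 14723. Leaving out single libraries gave 0 to 3, the highest without COSCC replicate 6 (3 of 12 tested, beside 899 of all 15220 genes). It was 0 without any of CAA replicates 1, 2, 3 and 5 or COSCC replicates 2 and 7 to 11. Over all genes the count was 55 without CAA replicate 2 and 1118 without COSCC replicate 3. In ENSCAFG00000007574 the log2 difference of -0.45 became 4.90 without the 4 carcinomas. Of the 15 tested genes, 9 kept their direction in every alternative. The cause of these changes was not tested. For mandible against maxilla, DESeq2 called 2 and leaving out single libraries gave 0 to 0.

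With a replicate block 0 of 15 genes were called, beside 6 of all genes (0.0391%). The numbers did not pair the tumors: deviations of same-numbered libraries correlated at -0.02 to 0.21, and 2 of 5 CAA matched their own number best.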
